A study of Mus musculus with 4 samples.

Results

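Nr3c1, Tsc22d3, Pik3ip1, Zfp36l2, Txnip and Vps37b, a set of 6 among the 27998 genes counted, were described in single T cells from the pancreatic islets of NOD mice, an inbred line prone to spontaneous autoimmune diabetes. The 6 genes form a group of glucocorticoid and quiescence-brake genes and were chosen on their difference between the ages in these same libraries, so that difference is given as values with no test. The mice were pre-diabetic NOD females, 16 weeks old in one set of libraries and 8 weeks old in the other, with strain, sex, tissue and disease state shared by both ages and no treatment or engineered allele named in the labels. Live islet cells that bound an antibody to the beta chain of the T cell receptor were collected by sorting, and each age gave 1 library of messenger RNA and 1 of receptor chains, 4 libraries in all. How many mice were pooled for each age is not given in the sources used here. With 1 library per age, age and library cannot be told apart, and the intervals in the text are exact 95% intervals that cover counting error only.

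Nr3c1 encodes the glucocorticoid receptor, a nuclear receptor that waits in the cytoplasm bound to heat shock proteins and, once it binds the hormone, enters the nucleus and turns genes on or off. Tsc22d3, also called GILZ, is among the genes it turns on in lymphocytes, and its protein restrains inflammatory transcription factors. The other genes act as brakes in resting T cells. Pik3ip1 encodes a membrane protein that inhibits PI3 kinase, Zfp36l2 an RNA-binding protein that shortens the life of AU-rich messenger RNAs, and Txnip an arrestin that binds thioredoxin and limits glucose uptake. Vps37b encodes a subunit of ESCRT-I, the complex that sorts ubiquitin-tagged membrane receptors for degradation. Resting T cells keep such brakes high, and stimulation through the T cell receptor is known to lower several of them.

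RefSeq promoter windows (GRCm38.p6, 250 bases before to 50 after a start) were matched for 3 of the 6 genes, Txnip, Pik3ip1 and Tsc22d3. The 250 bases before the start are shown for Txnip and for the Tsc22d3 window that held a match, since these are the genes with a regulatory motif of their textbook pathway in the window; capitals mark the matches of the pathway motifs.
Txnip, chr3:96557707-96557956, plus strand: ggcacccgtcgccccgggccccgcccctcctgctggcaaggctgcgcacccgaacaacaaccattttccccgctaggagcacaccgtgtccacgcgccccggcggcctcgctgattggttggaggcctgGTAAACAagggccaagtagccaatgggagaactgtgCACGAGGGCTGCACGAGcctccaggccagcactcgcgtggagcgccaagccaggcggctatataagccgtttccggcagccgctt
Tsc22d3, chrX:140600523-140600772, minus strand: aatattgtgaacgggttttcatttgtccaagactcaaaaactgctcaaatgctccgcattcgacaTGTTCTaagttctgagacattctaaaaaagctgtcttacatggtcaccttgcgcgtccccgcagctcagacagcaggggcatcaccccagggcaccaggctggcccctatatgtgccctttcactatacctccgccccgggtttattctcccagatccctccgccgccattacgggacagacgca
In the Txnip promoter the first capitals are the forkhead motif GTAAACA, which starts 121 bases before the start site and was present on either strand in 3.65% of 32851 RefSeq promoter windows. The second capitals match CACGNG, 5 bases of any kind and CACGNG again, the letters of the carbohydrate response element through which glucose is known to control Txnip. A CCAAT box, searched as well, matched at 137 bases (as ATTGG) and at 102 bases before the start and is left in lower case; it was in 37.4% of windows. The carbohydrate response pattern was in 16 of the 32851 windows (0.0487%). The capitals in the Tsc22d3 promoter are TGTTCT, the reverse complement of AGAACA, a single arm of the glucocorticoid response element, which was in 19.0% of windows. The full palindrome, AGAACA and TGTTCT with 3 bases between them, was in 3 windows of all genes (0.00913%) and in none of the 5 windows of Txnip, Pik3ip1 and Tsc22d3. These are matches of letters and not measured binding sites.

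In mouse build mm10 (GENCODE M21 annotation) each of the 6 is a protein-coding gene. Nr3c1 lies on chromosome 18 at 39410545 to 39519421 on the minus strand and Tsc22d3 on chromosome X at 140539528 to 140600659 on the minus strand. Pik3ip1 lies on chromosome 11 at 3330401 to 3342971 on the plus strand and Zfp36l2 on chromosome 17 at 84183931 to 84187947 on the minus strand. Txnip lies on chromosome 3 at 96557957 to 96561883 on the plus strand and Vps37b on chromosome 5 at 124004641 to 124032270 on the minus strand.

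RNA was counted in UMIs, molecular tags that each stand for 1 captured RNA molecule. There were 8183747 UMIs over 2107 barcodes in the 16-week library and 8659371 over 2043 in the 8-week library. After filtering, 1879 T cells at 16 weeks and 1830 at 8 weeks were summed, with medians of 2927 and 2976 UMIs per cell, and 5 barcodes occurred in both libraries. All 7 T cell markers matched were detected in every class at both ages. Cells with UMIs of Cd4 and none of Cd8a or Cd8b1 were split into Foxp3-type cells (a Foxp3 UMI or a place in a regulatory T-like cluster; 160 cells at 16 weeks and 181 at 8 weeks) and conventional Cd4 cells (564 and 575). Cells with Cd8a or Cd8b1 UMIs and none of Cd4 were the Cd8 class (314 and 295), and the other 841 and 779 T cells could not be placed by these UMIs. Levels are UMIs of the gene per 1000000 UMIs of the summed class (CPM), and a log2 ratio is taken between 2 such sums with 0.5 UMIs added to each. Summed immediate early genes (15 genes such as Fos, Jun and Dusp1, known to respond to stimulation and to tissue handling) were higher in the 16-week library in each class, at 5457 against 3725 CPM in conventional Cd4 cells, 5877 against 4391 CPM in Foxp3-type cells and 4562 against 3298 CPM in Cd8 cells. The 9 acinar markers summed to 76.9 against 36.0 CPM in conventional Cd4 cells, 110 against 83.9 CPM in Foxp3-type cells and 56.7 against 62.2 CPM in Cd8 cells, so pancreatic enzyme RNA was present in each class, and its part in the results was not tested. The T cells summed still held an unnamed cluster led by Clu, Apoe and Spp1 (23 cells at 16 weeks and 21 at 8 weeks) and an unnamed one led by Fcer1g and Ncr1 (15 and 30 cells).

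Among the 3 classes, the values of the receptor gene and of its target gene had different orders. Nr3c1 was at 66.5 CPM in Foxp3-type cells, 54.4 CPM in Cd8 cells and 47.5 CPM in conventional Cd4 cells at 16 weeks. At 8 weeks Nr3c1 was at 51.9 CPM in Foxp3-type cells, 27.5 CPM in Cd8 cells and 47.0 CPM in conventional Cd4 cells. The Cd8 class was therefore below conventional Cd4 cells at 8 weeks (log2 ratio -0.76, interval -1.34 to -0.24) and not separable from them at 16 weeks (0.20, -0.26 to 0.64). Tsc22d3 was lowest in Foxp3-type cells at both ages. It was at 115 CPM in Foxp3-type cells, 230 CPM in Cd8 cells and 182 CPM in conventional Cd4 cells at 16 weeks, and at 110, 176 and 165 CPM in the same order at 8 weeks. Foxp3-type cells had the highest Nr3c1 value at each age, but with an interval that overlapped that of conventional Cd4 cells. These intervals were 52.1 to 83.6 against 38.9 to 57.5 CPM at 16 weeks and 40.1 to 66.2 against 39.1 to 56.0 CPM at 8 weeks. The Tsc22d3 level of Foxp3-type cells was below that of conventional Cd4 cells (log2 ratio -0.66, -0.97 to -0.38, at 16 weeks and -0.58, -0.87 to -0.30, at 8 weeks).

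**Figure D1:**
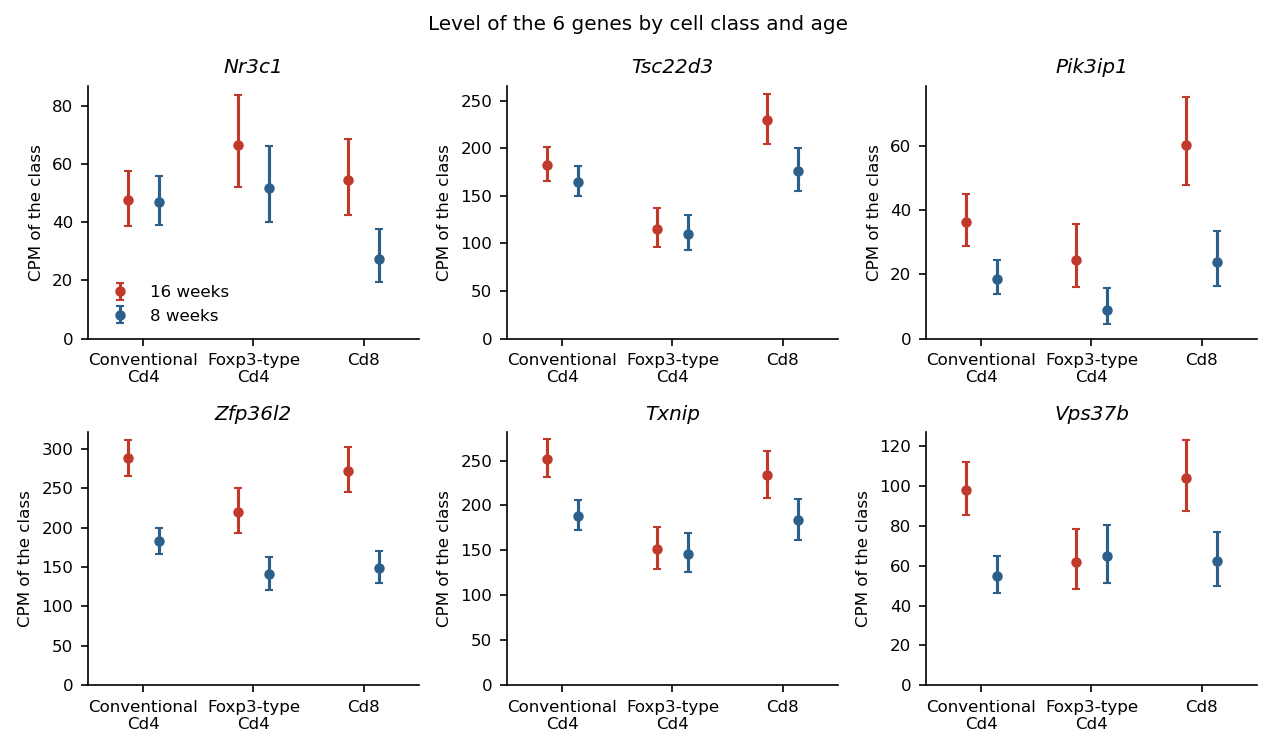
Levels of the 6 genes in CPM of the class total (y axis, starting at 0) in conventional Cd4, Foxp3-type Cd4 and Cd8 cells, with 16 weeks in red left of 8 weeks in blue; bars are exact 95% Poisson intervals of 1 library each. Zfp36l2 is higher at 16 weeks in all 3 classes, at 288, 221 and 273 CPM against 183, 141 and 149 CPM, while Tsc22d3 in Foxp3-type cells is at 115 against 110 CPM.

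The 4 brake genes divided in the same comparison of lineages. Pik3ip1, the PI3 kinase inhibitor, was at 24.6 CPM in Foxp3-type cells, 60.4 CPM in Cd8 cells and 36.2 CPM in conventional Cd4 cells at 16 weeks, and at 8.78, 23.9 and 18.6 CPM in the same order at 8 weeks. Cd8 cells were above conventional Cd4 cells at 16 weeks (log2 ratio 0.74, 0.27 to 1.20), and at 8 weeks the interval spanned 0 (0.37, -0.32 to 1.03). Foxp3-type cells were below conventional Cd4 cells at 8 weeks (-1.03, -2.17 to -0.12, from 11 and 49 UMIs), and at 16 weeks the interval spanned 0 (-0.54, -1.24 to 0.09). Zfp36l2, the RNA decay factor, was below conventional Cd4 cells in Foxp3-type cells by the same amount at both ages (log2 ratio -0.38, -0.61 to -0.17, at 16 weeks and -0.38, -0.64 to -0.13, at 8 weeks). Txnip was also lower in Foxp3-type cells, at 151 against 252 CPM in conventional Cd4 cells at 16 weeks and 146 against 188 CPM at 8 weeks. Cd8 cells and conventional Cd4 cells did not separate for Txnip at either age (log2 ratios -0.11 and -0.04, both intervals spanning 0). Vps37b, the ESCRT-I subunit, was lower in Foxp3-type than in conventional Cd4 cells at 16 weeks (62.0 against 98.2 CPM; log2 ratio -0.66, -1.08 to -0.27) and not at 8 weeks (64.7 against 55.0 CPM; 0.24, -0.18 to 0.64). At a size of 1.5-fold, 3 of the 6 genes were lower in Foxp3-type cells than in conventional Cd4 cells at 16 weeks, where 6.17% of all genes with at least 30 UMIs were, and 1 of 6 at 8 weeks, where 6.1% were. Between Cd8 and conventional Cd4 cells, 1 of 6 was higher at 16 weeks (5.59% of all genes) and 1 of 6 was lower at 8 weeks (9.43%). In Foxp3-type cells 66 of 160 cells at 16 weeks and 45 of 181 at 8 weeks carried at least 2 productive beta chains, a mark of doublets or dual receptors whose part in these levels was not tested. Without these cells the ratio between the ages in Foxp3-type cells was 0.73 for Zfp36l2 and 0.91 for Pik3ip1.

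Within each library, cells of naive type and cells of effector type were compared next. Cells were placed by the balance of UMIs of 5 naive genes (such as Lef1, Ccr7, Klf2 and S1pr1) and 13 effector genes (such as S100a4, Cxcr6, Icos and Ctla4), none of them among the 6. Tsc22d3, Pik3ip1, Txnip and Vps37b were each higher in naive-type than in effector-type cells, in conventional Cd4 and in Cd8 cells and at both ages. With naive clusters set against the other clusters instead, the log2 ratio of Txnip in Cd8 cells at 16 weeks was -0.29 (-1.86 to 0.73) in place of 1.41, from 13 against 301 cells, and those of the other genes named were between 0.78 and 1.03 there, with intervals that spanned 0 for Pik3ip1 and Vps37b. Zfp36l2 differed less, and Nr3c1 had no order that held. In conventional Cd4 cells at 16 weeks, Tsc22d3 was at 309 CPM in the 340 naive-type cells and 66.0 CPM in the 151 effector-type cells. At 8 weeks it was at 433 CPM in 211 naive-type cells and 69.7 CPM in 277 effector-type cells. The log2 ratios were 2.21 (1.81 to 2.66) and 2.63 (2.32 to 2.96).

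Pik3ip1 had few UMIs in the effector type. It was at 61.8 CPM in naive-type and 10.6 CPM in effector-type conventional Cd4 cells at 16 weeks, and at 60.5 and 4.50 CPM at 8 weeks, the effector values from 9 and 8 UMIs. In Cd8 cells it was at 105 CPM in naive-type and 5.82 CPM in effector-type cells at 16 weeks, from 68 and 3 UMIs (log2 ratio 3.97, 2.57 to 6.49), and at 44.6 and 9.78 CPM at 8 weeks (2.14, 0.93 to 3.59). Txnip was at 358 CPM in naive-type and 134 CPM in effector-type conventional Cd4 cells at 16 weeks, and at 393 and 107 CPM at 8 weeks. In Cd8 cells Txnip was at 336 and 126 CPM at 16 weeks and at 315 and 103 CPM at 8 weeks, again with no overlap of the intervals. Vps37b was at 168 CPM in naive-type and 34.2 CPM in effector-type conventional Cd4 cells at 16 weeks, against 109 and 30.4 CPM at 8 weeks. Its ratios in Cd8 cells were smaller at 16 weeks (log2 ratio 1.17, 0.59 to 1.81) and at 8 weeks (1.62, 0.96 to 2.33).

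Zfp36l2 kept more of its level in effector-type cells. It was at 333 CPM in naive-type and 230 CPM in effector-type conventional Cd4 cells at 16 weeks (log2 ratio 0.53, 0.28 to 0.79), and at 240 and 152 CPM at 8 weeks (0.66, 0.36 to 0.96). In Cd8 cells its log2 ratio was 0.23 at 16 weeks and 0.24 at 8 weeks, both with intervals that spanned 0. Nr3c1 was at 43.4 CPM in naive-type and 51.9 CPM in effector-type conventional Cd4 cells at 16 weeks (-0.26, -0.89 to 0.38) and at 62.1 and 41.6 CPM at 8 weeks (0.59, -0.03 to 1.17). In conventional Cd4 cells 4 of the 6 genes at 16 weeks and 6 of 6 at 8 weeks were 1.5-fold or more higher in the naive type, where 10.1% and 12.5% of all genes with at least 30 UMIs were. In Cd8 cells 4 of 6 were at 16 weeks (10.3% of all genes) and 3 of 5 at 8 weeks (9.84%), where Pik3ip1 with 19 and 8 UMIs was under the minimum. The median log2 ratio was 1.81 over the 6 genes and -0.20 over all genes in conventional Cd4 cells at 16 weeks, and 1.86 and -0.15 at 8 weeks. Foxp3-type cells had only 12 naive-type cells at 16 weeks and 14 at 8 weeks, where Txnip was at 367 against 128 CPM in 130 effector-type cells, and at 705.5 against 121.5 CPM in 157.

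Effector-type cells made up 81.2% of Foxp3-type cells at 16 weeks and 86.7% at 8 weeks, against 26.8% and 48.2% of conventional Cd4 cells, so the order of these classes was also read within the effector type. The effector genes include Ctla4, which is also a regulatory T marker and among the top 50 genes of both regulatory T-like clusters. The effector type may thus not be the same state in both classes, which was not tested. Within the effector type, Tsc22d3 was higher in Foxp3-type than in conventional Cd4 cells, the reverse of the order over all cells. It was at 103 against 66.0 CPM at 16 weeks and 95.8 against 69.7 CPM at 8 weeks. The intervals of these levels overlapped slightly, at 83.3 to 126 against 49.9 to 85.7 CPM at 16 weeks and 78.9 to 115 against 58.0 to 83.1 CPM at 8 weeks, and this split was chosen after the values were seen. Vps37b was at 53.7 against 34.2 CPM at 16 weeks and 59.0 against 30.4 CPM at 8 weeks, and Txnip at 128 against 134 CPM and 121.5 against 107 CPM. Foxp3-type cells also had more UMIs per cell, with medians of 5428 at 16 weeks and 5661 at 8 weeks against 2981.5 and 3109 in conventional Cd4 cells, and the part of depth was not tested.

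**Figure D2:**
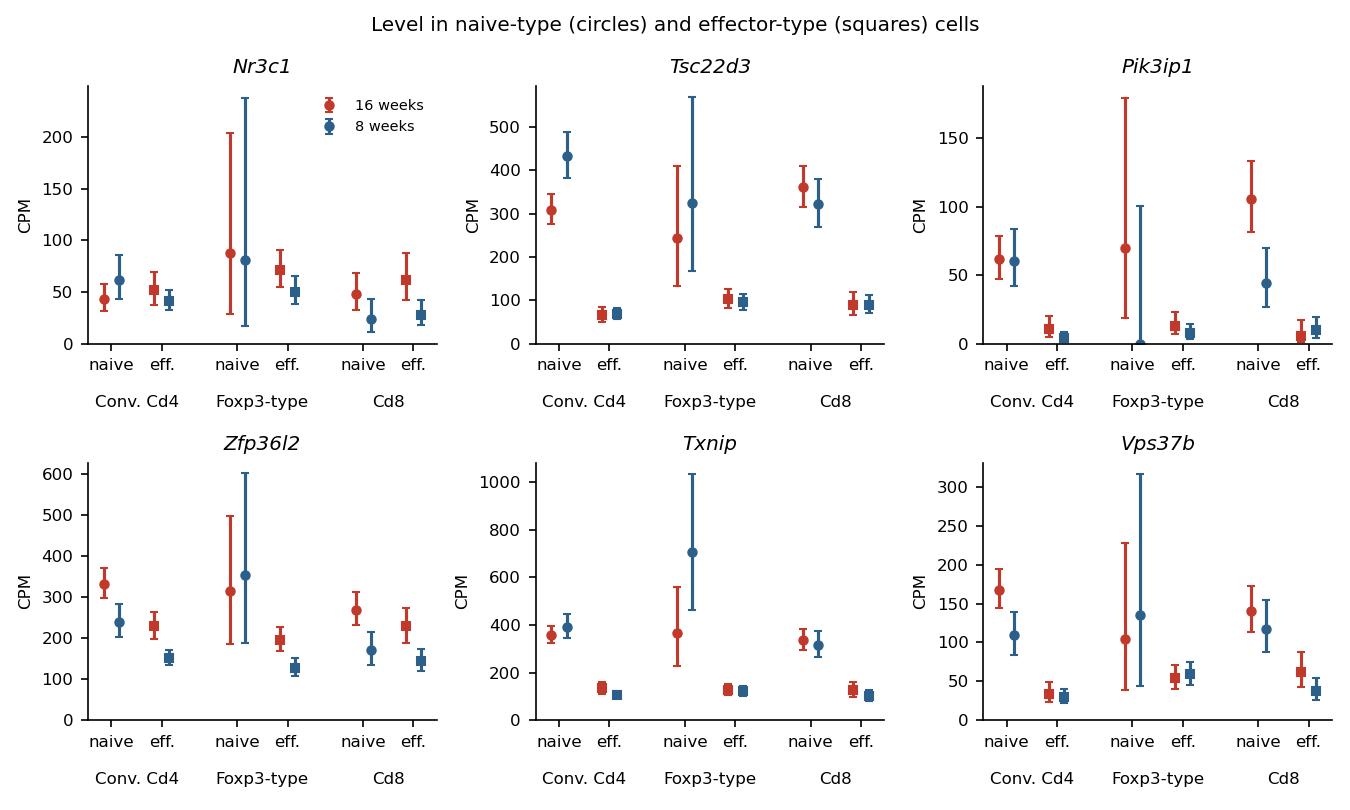
Level of each gene in CPM (y axis, starting at 0) in naive-type cells (circles) and effector-type cells (squares) of 3 classes, with 16 weeks in red left of 8 weeks in blue and exact 95% Poisson intervals. Tsc22d3, Pik3ip1, Txnip and Vps37b stand higher in naive-type than in effector-type conventional Cd4 and Cd8 cells at both ages, while Nr3c1 in conventional Cd4 cells is at 43.4 and 51.9 CPM at 16 weeks.

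Between the libraries, the higher level at 16 weeks was carried by Zfp36l2 and Pik3ip1 in every class and by Vps37b outside the Foxp3-type cells. Zfp36l2 was at 288 against 183 CPM in conventional Cd4 cells (16 against 8 weeks; log2 ratio 0.66, 0.49 to 0.83), at 221 against 141 CPM in Foxp3-type cells (0.65, 0.36 to 0.94) and at 273 against 149 CPM in Cd8 cells (0.87, 0.62 to 1.13). Pik3ip1 was at 36.2 against 18.6 CPM in conventional Cd4 cells (0.96, 0.43 to 1.51), at 24.6 against 8.78 CPM in Foxp3-type cells (1.45, 0.43 to 2.65) and at 60.4 against 23.9 CPM in Cd8 cells (1.33, 0.74 to 1.97). The Foxp3-type value rests on 27 and 11 UMIs. Vps37b was at 98.2 against 55.0 CPM in conventional Cd4 cells (0.84, 0.53 to 1.15), at 104 against 62.2 CPM in Cd8 cells (0.74, 0.35 to 1.15) and at 62.0 against 64.7 CPM in Foxp3-type cells (-0.06, -0.55 to 0.42).

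The receptor, its target and Txnip differed by less or in fewer classes. Nr3c1 was at 54.4 against 27.5 CPM in Cd8 cells (16 against 8 weeks; log2 ratio 0.98, 0.40 to 1.59), and in conventional Cd4 cells it was at 47.5 against 47.0 CPM (0.02, -0.37 to 0.40). In Foxp3-type cells Nr3c1 was at 66.5 against 51.9 CPM, with an interval that spanned 0 (0.36, -0.14 to 0.86). Tsc22d3 was at 230 against 176 CPM in Cd8 cells (0.38, 0.13 to 0.63), and its intervals spanned 0 in conventional Cd4 cells (0.15, -0.05 to 0.34) and Foxp3-type cells (0.06, -0.30 to 0.42). Txnip was at 252 against 188 CPM in conventional Cd4 cells (0.42, 0.24 to 0.60) and at 233 against 184 CPM in Cd8 cells (0.35, 0.10 to 0.59), and in Foxp3-type cells it was at 151 against 146 CPM. In the T cells not placed in a class, Zfp36l2 was at 341 against 237 CPM, Pik3ip1 at 43.5 against 27.4 CPM and Nr3c1 at 52.2 against 53.1 CPM. Of the 6 genes, 3 were 1.5-fold or more higher at 16 weeks in conventional Cd4 cells, 2 in Foxp3-type cells and 4 in Cd8 cells, where 5.16%, 6.82% and 4.85% of all genes with at least 30 UMIs were; since the genes were chosen on this contrast, nothing is read from these counts. Cells were also thinned to 1700 UMIs each, and those with fewer were left out. At 16 and then 8 weeks these were 24 and 46 conventional Cd4, 4 and 12 Foxp3-type and 14 and 11 Cd8 cells. After thinning, 1 gene was past 1.5-fold in conventional Cd4 cells (Vps37b, at 0.80) and 1 in Foxp3-type cells (Pik3ip1, at 1.70, -0.47 to 5.22). Pik3ip1 in thinned conventional Cd4 cells was at 0.41 (-0.37 to 1.22). In thinned Cd8 cells 3 genes were past 1.5-fold, and Vps37b was at 0.45 (-0.10 to 1.02).

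The libraries also differed in their mix of states, and within a state the ratios between the ages were not those of the whole class. Naive-type cells made up 60.3% of conventional Cd4 cells at 16 weeks and 36.7% at 8 weeks, and 61.5% against 46.4% of Cd8 cells; with 1 library per age these shares are descriptions of the cells summed. Within naive-type conventional Cd4 cells Tsc22d3 was lower at 16 weeks, at 309 against 433 CPM (log2 ratio -0.49, -0.73 to -0.25). Txnip was at 358 against 393 CPM (-0.14, -0.37 to 0.11) and Pik3ip1 at 61.8 against 60.5 CPM (0.02, -0.58 to 0.66) in the same cells, so neither had the difference seen over the whole class. Zfp36l2 was higher at 16 weeks both within the naive type (333 against 240 CPM; 0.47, 0.19 to 0.76) and within the effector type (230 against 152 CPM; 0.60, 0.33 to 0.87). Vps37b was higher within the naive type, at 168 against 109 CPM (0.61, 0.20 to 1.06), and in the effector type its interval spanned 0 (0.18, -0.53 to 0.85). At 1.5-fold, 1 of 6 genes was higher within the naive type (Vps37b; 5.97% of all genes were) and 1 of 5 with at least 30 UMIs within the effector type (Zfp36l2; 7.96%).

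In Cd8 cells Pik3ip1, Nr3c1 and Zfp36l2 differed between the libraries within a state. Pik3ip1 was at 105 against 44.6 CPM in naive-type Cd8 cells (16 against 8 weeks; 1.21, 0.49 to 2.06) and at 5.82 against 9.78 CPM in effector-type Cd8 cells, from 3 and 8 UMIs. Nr3c1 was at 62.1 against 28.1 CPM in effector-type Cd8 cells (1.13, 0.32 to 1.98) and at 48.0 against 23.5 CPM in naive-type Cd8 cells (0.98, -0.03 to 2.22). Zfp36l2 had the same log2 ratio of 0.65 in both states, with intervals above 0. Tsc22d3 and Txnip had ratios of 0.16 and 0.09 in the naive type and of -0.01 and 0.30 in the effector type, each with an interval that spanned 0. At 1.5-fold, 3 of 6 genes were higher in naive-type Cd8 cells (6.01% of all genes were) and 3 of 5 in effector-type ones (6.6%), although the interval of Nr3c1 in the naive type and that of Vps37b in the effector type (0.71, -0.05 to 1.47) spanned 0. In Foxp3-type cells of effector type, Zfp36l2 was at 195 against 128 CPM (0.60, 0.28 to 0.93), and the intervals of the other 5 genes spanned 0. That was 1 of 5 genes with at least 30 UMIs at 1.5-fold, where 7.28% of all genes were.

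When the 16-week levels were reweighted to the state mix of the 8-week library, the log2 ratio in conventional Cd4 cells was 0.03 for Txnip and -0.43 for Tsc22d3, in place of 0.42 and 0.15. It was 0.31 in place of 0.96 for Pik3ip1 and 0.25 in place of 0.84 for Vps37b. Zfp36l2 moved little, to 0.50 in place of 0.66. In Cd8 cells the reweighted ratios were 0.04 for Tsc22d3 and 0.08 for Txnip, against 0.79 for Zfp36l2, 0.83 for Pik3ip1 and 1.03 for Nr3c1. Each class was also split at its median share of immediate early UMIs, a split chosen after the data were seen. Zfp36l2 had ratios between the ages of 0.64, 0.72 and 0.80 in conventional Cd4, Foxp3-type and Cd8 cells at or below the median, and of 0.29, 0.32 and 0.68 in those above it. Its interval spanned 0 in Foxp3-type cells above the median (-0.06 to 0.72) and lay above 0 in the other 5 sets. Vps37b was at 0.48 in conventional Cd4 cells and 0.32 in Cd8 cells at or below the median, both with intervals that spanned 0, and at 0.65 and 0.94 above it. Pik3ip1 in conventional Cd4 cells was at 0.71 (-0.12 to 1.53) at or below the median and 0.78 (0.06 to 1.59) above it. Nr3c1 in Cd8 cells was at 0.58 (-0.23 to 1.41) at or below the median and 1.32 (0.42 to 2.42) above it. Tsc22d3 in Foxp3-type cells was at -0.60 (-1.23 to -0.01) at or below the median and 0.21 (-0.26 to 0.71) above it.

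**Figure D3:**
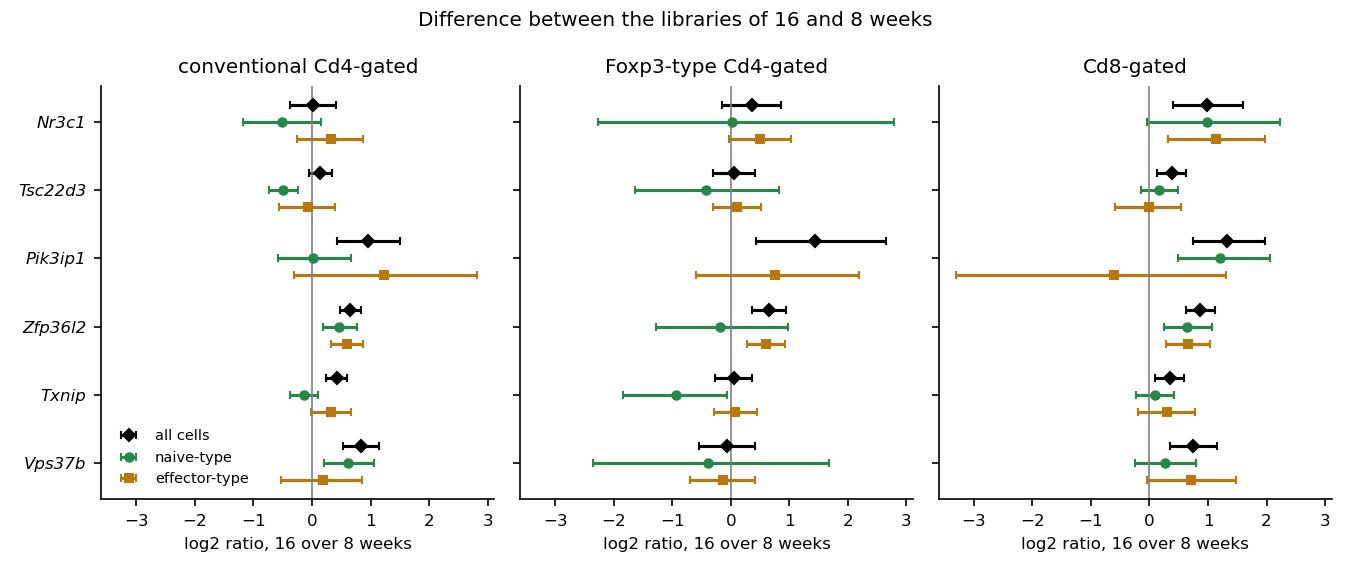
Log2 ratio of CPM at 16 weeks over 8 weeks (x axis, line at 0) for each gene (rows) in 3 classes, over all cells (black diamonds), naive-type cells (green circles) and effector-type cells (orange squares), with exact 95% intervals from counting. Zfp36l2 lies above 0 over all cells and in both states of conventional Cd4 and Cd8 cells, and Tsc22d3 lies at -0.49 in naive-type conventional Cd4 cells.

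A joint clustering of both libraries, run without the 6 genes, gave the levels at finer grain. Tsc22d3 and Vps37b had their highest value at 16 weeks in cluster 3, naive or stem-like T-like by markers such as Lef1, Ccr7, Klf2 and S1pr1. There Tsc22d3 was at 421 CPM in the 16-week library against 650 CPM in the 8-week one, and Txnip at 439 against 495 CPM. Txnip was at a similar level in cluster 6, led by the interferon-response genes Ifit3 and Ifit1 (448 CPM at 16 weeks and 362 CPM at 8 weeks). Pik3ip1 was at 85.2 and 78.5 CPM in cluster 3, and at 96.3 and 46.4 CPM in cluster 5, an unnamed one led by Cd8b1 and Cd8a. Zfp36l2 had another peak, in cluster 1, which is unnamed and led by Itgb1, Anxa1 and Sidt1. There it reached 693 against 402 CPM (16 against 8 weeks), and it stood among the 10 leading genes of that cluster. The naive genes Klf2 and S1pr1 were among the top 50 genes of cluster 1, so its cells may count as naive type. The part of this cluster in the naive-type levels of Zfp36l2 was not tested. Cluster 7, led by genes of cell division such as Birc5 and Ube2c and with a median of 14440 UMIs per cell, held the lowest Tsc22d3 value at 16 weeks among the clusters plotted (39.0 CPM, against 68.3 CPM at 8 weeks). In the clusters of regulatory T-like cells, Tsc22d3 was at 122 and 104 CPM in cluster 4, led by Areg, and at 267 and 347 CPM in cluster 9, led by Gpr83. Over the 11 T cell clusters with at least 30 cells at each age, the ratio of Zfp36l2 between the ages was above 0 in 10, with 8 intervals above 0. Tsc22d3 was above 0 in 6 of the 11, with no interval above 0 and 3 below, and Nr3c1 was above 0 in 8 with no interval apart from 0. Nr3c1 was at 48.8 against 41.1 CPM in cluster 5 (16 against 8 weeks, 36 and 23 UMIs). In cluster 8, with Cd8a among its 10 leading genes, Nr3c1 was at 49.6 against 31.6 CPM (21 and 17 UMIs). Both differences were smaller than that over the Cd8 class.

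**Figure D4:**
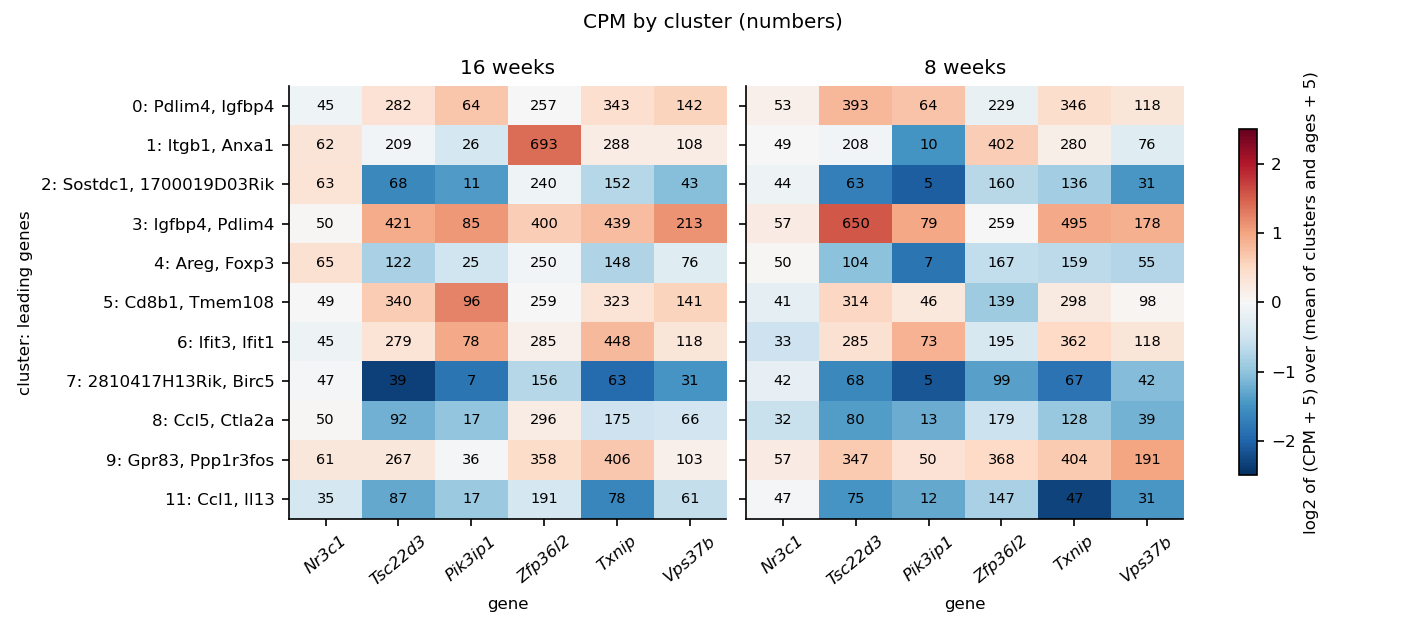
CPM (numbers) of the 6 genes (columns) in 11 clusters (rows, with 2 leading genes each), at 16 weeks in the left panel and 8 weeks in the right one; colour is the log2 of the level with 5 CPM added over the mean of the gene's clusters and ages. Zfp36l2 is highest in cluster 1 (693 and 402 CPM) and Tsc22d3 in cluster 3 (421 and 650 CPM), while cluster 7 holds low values for both.

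In cells with RNA of division genes, 5 of the 6 genes made up a smaller share of the UMIs. Such cells can hold more RNA, with a median of 14440 UMIs per cell in cluster 7. A lower CPM there need not mean fewer molecules of the gene per cell. Dividing cells (2 or more UMIs over 2 or more of 10 division genes; 101 at 16 weeks and 165 at 8 weeks over all T cells) had Tsc22d3 at 46.0 CPM against 225 CPM in other cells at 16 weeks, and 65.7 against 213 CPM at 8 weeks. The log2 ratios were -2.28 (-2.68 to -1.92) and -1.69 (-1.95 to -1.45). Txnip was at 72.0 CPM in dividing and 283 CPM in other cells at 16 weeks, and at 68.4 and 243 CPM at 8 weeks. Pik3ip1 was at 10.4 and 48.3 CPM at 16 weeks and at 4.44 and 27.4 CPM at 8 weeks, the dividing values from 14 and 10 UMIs. Zfp36l2 had ratios of -0.94 at 16 weeks and -1.16 at 8 weeks, and Vps37b of -1.52 and -0.93, all with intervals below 0. Nr3c1 was at 43.1 CPM in dividing and 55.5 CPM in other cells at 16 weeks and at 42.6 and 48.2 CPM at 8 weeks, with intervals that spanned 0. At 1.5-fold, 5 of the 6 genes were lower in dividing cells at each age, where 18.7% of all genes at 16 weeks and 15.5% at 8 weeks were. By class, at 16 and then 8 weeks, 6 and 5 of 6 were lower in conventional Cd4 cells (17.8% and 19.5% of all genes) and 5 and 3 of 6 in Cd8 cells (20.6% and 13%). In Foxp3-type cells 3 and 4 of 5 genes with at least 30 UMIs were (18.1% and 13.6%). Dividing and other cells were not split by naive or effector type, and the part of state in these ratios was not tested.

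Cells whose paired receptor recurred in the library, called expanded here, were compared with cells whose receptor was found once. Over all T cells, 71 expanded and 1287 single-receptor cells were found at 16 weeks and 151 and 1187 at 8 weeks. Tsc22d3 was at 66.8 CPM in expanded and 181 CPM in single-receptor cells at 16 weeks (log2 ratio -1.40, -2.12 to -0.83), and at 59.6 and 178 CPM at 8 weeks (-1.57, -1.99 to -1.19). Txnip was at 115.5 and 236 CPM at 16 weeks and at 84.1 and 200 CPM at 8 weeks. No Pik3ip1 UMI was found in the expanded cells at 16 weeks, against 241 in single-receptor cells, and at 8 weeks there were 4 against 133. The upper bound of the 16-week log2 ratio was -1.86. Nr3c1 had ratios of -0.63 at 16 weeks and -0.49 at 8 weeks with intervals that spanned 0. At 1.5-fold, 5 of the 6 genes were lower in expanded cells at 16 weeks and 4 at 8 weeks, against 14.6% and 10.7% of all genes. In conventional Cd4 cells 6 of 6 were lower at each age (16% and 10.3% of all genes). In Cd8 cells 2 of 6 were at 16 weeks, with 7 expanded cells (25% of all genes), and 4 of 5 at 8 weeks, with 22 (14.4%). In Foxp3-type cells 1 of 5 was at 16 weeks, with 11 expanded cells (16%), and 2 of 5 at 8 weeks, with 16 (18.9%). Expanded and single-receptor cells were not split by state, and the part of state in these ratios was not tested.

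**Figure D5:**
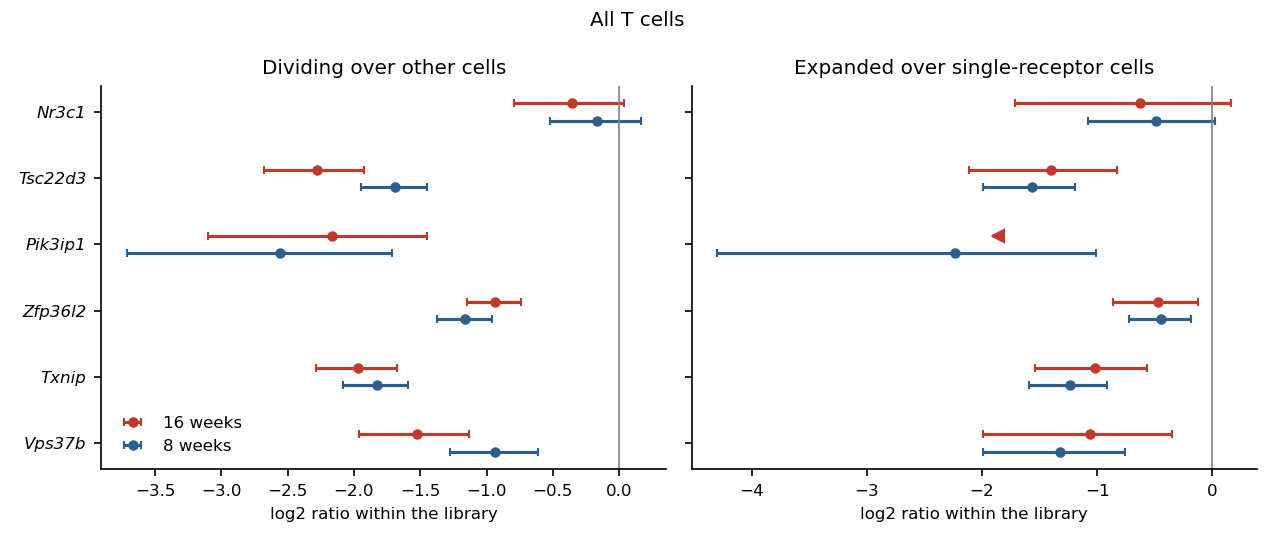
Log2 ratio (x axis, line at 0) within each library of dividing over other T cells (left) and of expanded over single-receptor T cells (right) for the 6 genes, with 16 weeks in red above 8 weeks in blue and exact 95% intervals from counting. The red arrow for Pik3ip1 marks the upper bound of -1.86, since no UMI was found in expanded cells at 16 weeks; Nr3c1 lies nearest 0 among the dividing ratios.

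Other genes of the same pathways were counted from lists that were chosen with earlier results of these data known. Their ratios between the ages are over whole classes, whose state mix differed between the libraries, and the part of state was not tested. Of 16 glucocorticoid response genes with at least 30 UMIs in conventional Cd4 cells, 2 were 1.5-fold or more higher at 16 weeks and 1 lower, where 5.16% of all genes were higher and 6.48% lower. The higher ones were Dusp1, a phosphatase that inactivates MAP kinases (391 against 195 CPM; log2 ratio 1.00, 0.84 to 1.16), and Tle4, a corepressor (22.6 against 12.9 CPM; 0.81, 0.15 to 1.49). Anxa1, which encodes annexin A1, was lower at 7.24 against 17.4 CPM (-1.24, -2.19 to -0.42). Fkbp5, a receptor cochaperone and a standard glucocorticoid target, was at 18.1 against 15.9 CPM in conventional Cd4 cells (0.19, -0.48 to 0.85). It was at 14.6 against 29.5 CPM in Foxp3-type cells (-0.99, -1.96 to -0.14) and at 12.8 against 23.9 CPM in Cd8 cells (-0.87, -1.83 to -0.01), and was named after its values were seen. The median ratio of the list was 0.36 in conventional Cd4 cells, 0.32 in Foxp3-type cells and 0.09 in Cd8 cells, beside -0.05, -0.03 and -0.06 over all genes. Dusp1 is also an immediate early gene. In conventional Cd4 cells 6 of 14 genes of that group were 1.5-fold or more higher and 0 lower (5.16% and 6.48% of all genes).

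Of 14 receptor chaperones and cofactors none passed 1.5-fold in either direction in conventional Cd4 cells, where 5.16% of all genes were higher and 6.48% lower. With shares this small, nothing is read from a count of none in a short list. Hspa8, the constitutive heat shock protein 70, was at 2662 against 2043 CPM in these cells (0.38, 0.33 to 0.43). Quiescence factors differed by state within a library. In naive-type over effector-type conventional Cd4 cells, 6 of 13 were 1.5-fold higher at 16 weeks and 14 of 15 at 8 weeks (10.1% and 12.5% of all genes). Lower were 0 and 1 (24.8% and 25.7%). The list holds Klf2, a naive gene used to set the state, so the split itself favours a higher Klf2 value in the naive type. Between the ages, quiescence factors in conventional Cd4 cells were higher in 4 of 17 and lower in none (5.16% and 6.48% of all genes). Satb1, a chromatin organiser of naive T cells, was at 106 against 48.5 CPM (1.13, 0.82 to 1.45) and Tsc1, an inhibitor of mTOR signalling, at 13.1 against 6.82 CPM (0.93, 0.05 to 1.88). The other two, named after their values were seen, were Klf2, a factor that keeps T cells resting and is also one of the naive genes used for the state (761 against 451 CPM; 0.76), and its relative Klf6 (230 against 143 CPM; 0.68). None of 16 PI3 kinase pathway genes passed 1.5-fold in conventional Cd4 cells (5.16% of all genes were higher and 6.48% lower), and the median ratio of that list was 0.11. In Cd8 cells 3 of 13 were higher and 1 lower, where 4.85% of all genes were higher and 7.67% lower.

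In the Zfp36 family and RNA decay list 0 of 17 genes passed 1.5-fold in conventional Cd4 cells, where 5.16% of all genes were higher and 6.48% lower. The RNA decay cofactor Btg1 was at 682 against 469 CPM (0.54, 0.43 to 0.65). The paralogs of Zfp36l2 differed less than it did: Zfp36l1 was at 357 against 298 CPM (0.26, 0.11 to 0.40) and Zfp36 at 422 against 354 CPM (0.26, 0.12 to 0.39), both named after their values were seen. Among 11 arrestin and thioredoxin genes 2 were lower and none higher (6.48% and 5.16% of all genes). These were the partners of Txnip, Txn1, which encodes thioredoxin (246 against 372 CPM; -0.60, -0.75 to -0.44), and Slc2a1, the glucose transporter that Txnip limits (9.96 against 19.3 CPM; -0.94, -1.75 to -0.21). Txn1 was also lower in Cd8 cells, at 234 against 349 CPM (-0.57, -0.78 to -0.36). Among 9 ESCRT genes, set against 5.16% of all genes higher and 6.48% lower, 2 were higher, Ubap1 (25.8 against 13.3 CPM; 0.95, 0.33 to 1.61) and Stam (11.8 against 5.31 CPM; 1.13, 0.16 to 2.20), and 1 was lower, Mvb12b (8.60 against 16.3 CPM; -0.90, -1.78 to -0.11). Of the TSC22 family, Tsc22d4 was at 197 against 176 CPM and Tsc22d2 at 18.6 against 15.5 CPM, both with intervals that spanned 0.

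Over the 12 groups of class, state and age, the levels of Tsc22d3, Txnip and Vps37b moved most alike. Pearson's r of log2(CPM + 10) was 0.94 between Tsc22d3 and Vps37b, 0.92 between Tsc22d3 and Txnip, and 0.89 between Txnip and Vps37b. Nr3c1 stood apart from its target at 0.11 with Tsc22d3, and was at -0.09 with Pik3ip1 and 0.58 with Zfp36l2. The 12 groups come from 2 libraries and share depth and state, so these are descriptions. Some levels rest on few UMIs. Naive-type cells of the Foxp3-type class had 5 and 3 UMIs of Nr3c1, and 4 and 0 of Pik3ip1, at 16 and 8 weeks. The part of such counting error in the low r values was not tested. Among 6717 genes, those most like Tsc22d3 included Gm11808 and Igfbp4 (r of 0.97 each). Those most like Txnip were Rabac1, Scml4 and Arhgap15 (0.98, 0.97 and 0.97), and those most like Vps37b were Satb1, Cpne4 and Fam105a (0.96, 0.95 and 0.95). Those most like Pik3ip1 were Als2cl, Tapbp and Rapgef6 (0.92, 0.91 and 0.91), and those most like Zfp36l2 were Dnaja1, Rps27rt and Ddx5 (0.91, 0.91 and 0.89). For Nr3c1 they were Eya3, Zfp638 and Acbd3 (0.90, 0.89 and 0.87). All these genes were picked as the highest of 6717 over only 12 groups, so nothing is read from the size of their r.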

How the data were processed

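UMI counts per gene and cell barcode were used as the authors deposited them, as whole numbers with no normalization. The build was mm10 and Seurat was among the tools, per the submitters' processing notes, and the matrices came from software version 3.0.1, per the file headers. For the aligner and annotation the entry is: not given in the sources used here. Receptor contig tables gave, per the file headers, the receptor chains and their UMI counts, which were joined by barcode.

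Python 3.11.15, scanpy 1.11.5, numpy 2.4.6, pandas 2.3.3, scipy 1.17.1 and leidenalg 0.10.2 served for all steps. Barcodes needed 500 genes and no more than 10% mitochondrial UMIs to be kept. Scrublet (expected rate 0.02) marked 3 cells at 16 weeks and 0 at 8 weeks, so doublets were in effect not removed. Both libraries were clustered together (2000 variable genes without the 6 genes described, 30 principal components, 15 neighbours, Leiden resolution 1). Clusters were named from 3 or more markers among their top 50 genes (2 for the B-like one), a scoring set after the clusters were seen. An acinar-like cluster (49 cells at 16 weeks and 37 at 8 weeks) and the B-like one (3 and 8) were left out of the T cells.

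UMIs were summed over the cells of a class or state and divided by their total, giving CPM with exact Poisson intervals; for a ratio, the exact binomial interval of the split of a gene's UMIs was used. Naive-type cells had at least 3 UMIs of state genes with a naive share of 0.67 or more, and effector-type cells a share of 0.33 or less. The states are ranges of a score: 60 of 564 conventional Cd4 cells at 16 weeks and 51 of 575 at 8 weeks lay near the naive bound. Counts at 1.5-fold used the unrounded log2 of 1.5 (about 0.58) and genes with at least 30 UMIs over both sums. The code of the log2 ratio and its interval was tested on simulated counts, and that of the other steps was not. No test was run, since there is 1 library per age, and total depth per library is given above. The genes and lists were chosen with earlier results of these data known. Named from each pathway list were the 2 genes with the highest and the 2 with the lowest ratio between the ages in conventional Cd4 cells, and for each of the 6 genes the 3 most alike over 12 groups; not all of these are described, and some are not reported here. The markers Trac, Trdc and Vps28 were not matched by symbol and are not used here.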

Additional observations from a re-analysis of the deposited data

Results flagged for a closer look

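Tsc22d3 had ratios between the ages of opposite sign in different cells, with counting intervals on either side of 0, and the difference between the groups was not tested. Its log2 ratio of 16 over 8 weeks was -0.49 in naive-type conventional Cd4 cells and -0.51 in dividing cells. In conventional Cd4 cells between the naive and effector ranges it was -1.22 (24 and 42 UMIs). Over the whole Cd8 class it was 0.38, a value that also holds the difference in state mix between the libraries. With the 16-week levels reweighted to the 8-week state mix, the Cd8 ratio of Tsc22d3 was 0.04. Txnip was at -0.94 in Foxp3-type cells of naive type, which were 12 cells at 16 weeks and 14 at 8 weeks. Over the whole conventional Cd4 class its ratio was 0.42, and 0.03 when reweighted to the 8-week state mix. This difference was not tested either.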

How the results depend on the processing

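Of 588 ratios under the alternatives, 32 had another sign than the reported ratio. In 31 of these the interval of the reported ratio spanned 0, and in 1 it did not. Apart from that 1, 44 ratios lay outside the interval of the reported one and 543 lay within it. The number of the 6 genes at least 1.5-fold higher at 16 weeks was 3 in conventional Cd4 cells and 1 with cells thinned to 1700 UMIs. In Foxp3-type cells it was 2, and 1 with equal weight per cell, with thinned cells, with a lineage gate of 2 UMIs, without dividing cells and without the cell with most UMIs of a gene. In Cd8 cells it was 4, and 2 among cells with an immediate early share at or below the class median (Nr3c1, at a log2 ratio of 0.58, was just under 1.5-fold), an alternative chosen after seeing the data, as was leaving out Foxp3-type cells without a Foxp3 UMI. The naive over effector ratio of Txnip in Cd8 cells at 16 weeks was 1.41, and -0.29 when naive clusters were set against the other clusters, a split of 13 against 301 cells. The cause of these moves was not tested. Thinning moved 14 values, among them Zfp36l2 in conventional Cd4 cells at 0.44. With minimums of 10, 30 and 100 UMIs, 8.09%, 5.16% and 1.96% of all genes were 1.5-fold higher in conventional Cd4 cells. No paired analysis was possible because each age has 1 RNA library. Depth limits Pik3ip1 most, with 27 and 11 UMIs in Foxp3-type cells.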
